A study of Rattus norvegicus with 10 samples.

Results

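Aminoacyl-tRNA synthetases are the enzymes that join each amino acid to its transfer RNA, the step that fixes the meaning of the genetic code before a ribosome reads a message. Their genes were taken from the count table by symbol (1 capital letter followed by ars or ars2, and Eprs, Farsa, Farsb and Ears2), with a gene name that contains the words tRNA synthetase. This gave 35 of the 17168 gene symbols in the table, of which 20 encode cytosolic enzymes and 15 mitochondrial ones, the latter with symbols ending in 2. All 35 passed the filter on low counts. Iars2 and Mars2, the mitochondrial enzymes for isoleucine and methionine, were not analysed here.

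Cytosolic and mitochondrial synthetases are separate nuclear genes for most amino acids. Kars and Gars each supply both compartments from 1 gene, and glutamine has no mitochondrial synthetase, because mitochondria make that charged tRNA with an amidotransferase. Several cytosolic enzymes sit in a multi-synthetase complex held together by the scaffold proteins Aimp1, Aimp2 and Eef1e1. Many cytosolic synthetase genes are known targets of ATF4, the transcription factor of the amino acid response. In the nervous system, inherited variants of cytosolic synthetases such as Gars and Yars cause peripheral neuropathy, and variants of mitochondrial ones such as Aars2 and Ears2 cause diseases of brain white matter.

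RNA was sequenced as mRNA libraries from the left hippocampus of 10 female rats. All were of the TgF344-AD line, a transgenic line that serves as a model of Alzheimer's disease. The 5 untreated animals ate rodent chow, and the other 5 ate the same kind of chow with RG2833, an inhibitor of the histone deacetylases HDAC1 and HDAC3, at 750 mg per kg of chow. Treatment began at 5 months of age and lasted 6 months, and all animals were killed at 11 months. A food dye told the chows apart. Both groups carry the transgenes, so no comparison with non-transgenic rats could be made. The labels do not say whether animals shared a litter or cage.

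Total estimated counts ran from 8764270 to 11311700 per library. Ribosomal RNA loci took a share of counts of 2.70% to 5.36% in untreated and 1.13% to 1.96% in RG2833 libraries, with no overlap (exact permutation test, two-sided, p = 0.00794, which is the smallest value possible with 5 animals a group). Of 5 listed markers of hippocampal excitatory neurons, none was at 0, and their summed level was 2248 to 3489 CPM (TMM-scaled CPM, counts relative to library size) in untreated and 3748 to 4482 CPM in RG2833 animals, with 1 of the 5 called higher (Camk2a). Taken singly, only Slc17a7 had groups that did not overlap (edgeR adjusted p = 0.0689). The groups of Camk2a, Neurod2, Neurod6 and Prox1 overlapped. The sums of the other 8 marker lists overlapped between groups, and 1 of the 5 microglia markers, Aif1, was called lower (log2 fold change -0.74, edgeR adjusted p = 0.0496). Choroid plexus markers, from tissue that borders the hippocampus, summed to 2456 CPM in untreated replicate 1 and to between 4.29 and 44.5 CPM in the other 9 animals. In bulk tissue, fewer cells of a type and less RNA per cell cannot be told apart. The part of these library and cell-type differences in the synthetase values was not tested apart from the covariate fits given below.

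The promoter windows of the genes are shown because the known link from amino acid supply to these genes runs through an ATF4 site. RefSeq windows of 300 bases (250 before and 50 after the start of the gene, build GRCr8) were used for 31 of the 35 genes. The 8 letters TTGCATCA, read on either strand and known as the core that ATF4 binds with a C/EBP partner, occurred in 7 of the 31 windows (22.6%), against 0.795% of all 33469 windows in the table. All 7 belonged to cytosolic enzymes: Aars, Cars, Iars, Mars, Nars, Tars and Yars, for alanine, cysteine, isoleucine, methionine, asparagine, threonine and tyrosine. The matches of 6 of them are shown 5′ to 3′ on the strand of each gene with the match in capitals, which reads TGATGCAA where it lies on the opposite strand.
Cars (chr1:208225335-208225362, − strand): ggcgccgcggTTGCATCAgattctggaa
Iars (chr17:15193659-15193686, − strand): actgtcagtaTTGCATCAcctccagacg
Mars (chr7:65023753-65023780, − strand): cccgttccggTTGCATCAgcgtgggctc
Nars (chr18:60275779-60275806, − strand): ctaggtgatcTGATGCAAcgcttcagtc
Tars (chr2:62114812-62114839, − strand): tggcgtcccgTTGCATCAgctggttagc
Yars (chr5:146820191-146820212, + strand): cgagctcagcTGATGCAAcctg

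The match began 14 to 27 bases before the start of the gene in Iars, Mars, Nars and Tars, and 17 and 38 bases after it in Cars and Yars. The looser form TGATGNAA, of which TGATGCAA is one case, occurred in the same 7 genes and in 3.98% of all windows. Among the other motifs searched on both strands, the cAMP response element TGACGTCA was in 0 of the 31 windows (1.83% of all windows). The ETS core GGAAGTG was in 8 (25.8% against 9.86%), and CCAAT was in 15 (48.4% against 37.5%). Among these 31, the NRF1 palindrome was found only in the Wars2 window (3.23% against 0.852% of all windows) and the ZNF143 motif only in that of Lars (3.23% against 0.275%). The 7 motifs were chosen with the expression results known, a match is a description of letters, and no test was made of these shares.

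Hars and Hars2, the cytosolic and mitochondrial histidine enzymes, lie head to head, so that both genes start from 1 shared stretch of 143 bases. It is shown because the pair is read in opposite directions from the same DNA, on the + strand of GRCr8 at chr18:28672713-28672855, all in lower case since no part is singled out.
Hars and Hars2: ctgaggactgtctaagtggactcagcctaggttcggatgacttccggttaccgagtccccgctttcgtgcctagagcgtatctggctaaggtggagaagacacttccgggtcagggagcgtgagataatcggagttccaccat

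No synthetase gene was called between RG2833 and untreated animals. Calls required a Benjamini-Hochberg adjusted p under 0.05 in edgeR's quasi-likelihood test over all 11791 tested genes, and 5.08% of these passed, 2.41% with higher and 2.67% with lower levels in RG2833 animals. At an unadjusted p under 0.05, 5 of the 35 passed (14.3%), against 24.5% of all tested genes. These were Wars, Aars2 and Wars2, with higher means in RG2833 animals, and Dars and Fars2, with lower means. Other tools called 1 gene (DESeq2's Wald test, Aars2) or 0 genes (limma-voom and limma trend). DESeq2's Wald test called 10.9% of all tested genes.

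The fitted differences were small and ran in both directions. The median log2 fold change was 0.02 over the 20 cytosolic genes and 0.04 over the 15 mitochondrial genes, against -0.0035 over all tested genes. A positive difference was found for 12 of the 20 cytosolic and 8 of the 15 mitochondrial genes. The 95% interval of the difference lay within 0.5 log2 units of 0 on both sides for all 20 cytosolic genes and for 9 of the 15 mitochondrial ones, and for 6937 of the 11791 tested genes. The 6 mitochondrial genes whose interval passed 0.5 on either side were Aars2, Wars2, Fars2, Ears2, Rars2 and Nars2.

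**Figure D1:**
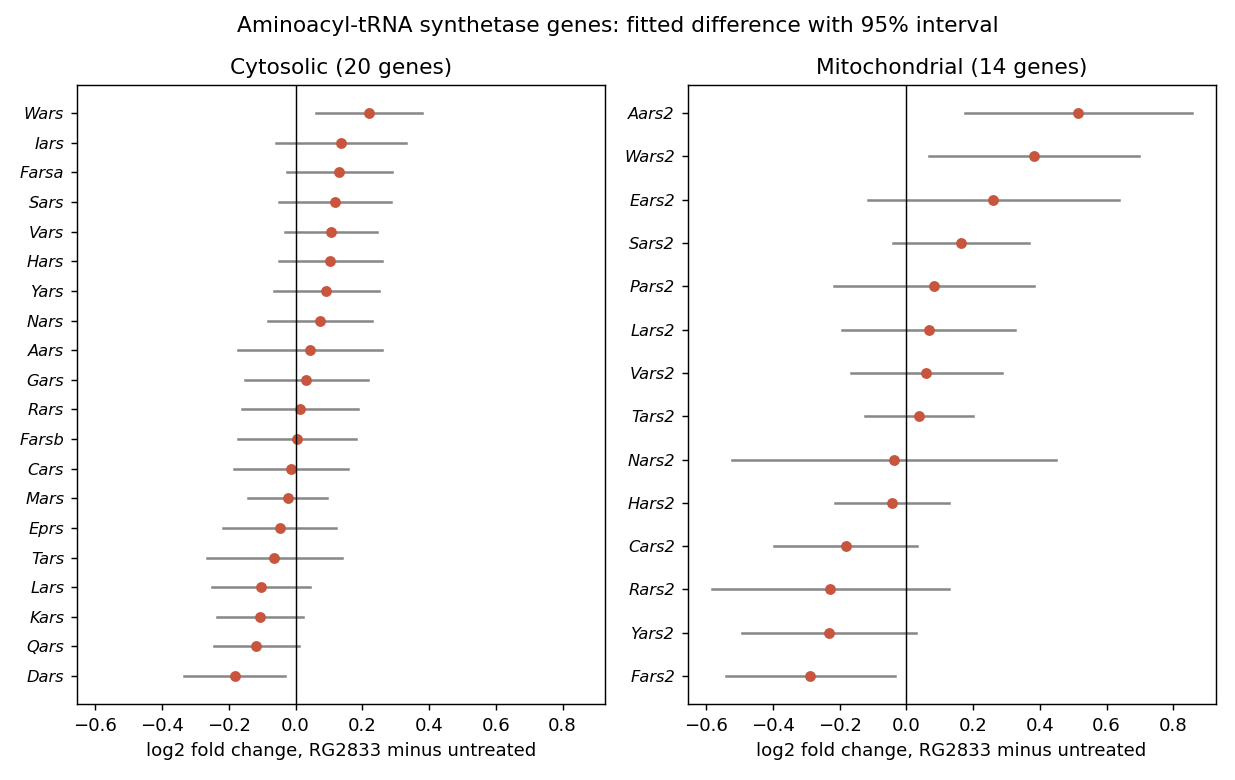
Points are fitted log2 fold changes (RG2833 minus untreated, x axis) and lines their 95% intervals for each gene (y axis), with 20 cytosolic genes on the left and 14 mitochondrial genes on the right. Cytosolic estimates lie between -0.18 (Dars) and 0.22 (Wars), and the mitochondrial ones between -0.29 (Fars2) and 0.51 (Aars2).

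The 20 cytosolic genes had between 323 and 2729 counts per library and the 15 mitochondrial genes between 27 and 555. The median standard error of the log2 fold change was 0.07 for the cytosolic and 0.12 for the mitochondrial genes. Since the files give no transcript lengths, levels are compared between animals and not between genes.

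Wars, the tryptophan enzyme, had the smallest p-value among the cytosolic genes. It was at 111, 99.8, 129, 111 and 120 CPM in untreated replicates 1 to 5 and at 136, 127, 129, 139 and 134 CPM in RG2833 replicates 1 to 5. Of the untreated animals only replicate 3 reached the RG2833 range, so the groups overlapped at that animal alone. The log2 fold change was 0.22 ± 0.07 (SE, edgeR adjusted p = 0.0922), from 114 ± 10.8 to 133 ± 4.75 CPM (SD, n = 5 each). Without untreated replicate 2, the lowest animal, it was 0.18 (edgeR adjusted p = 0.157).

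Dars, the aspartate enzyme, was the cytosolic gene with the most negative difference. Its levels were 45.5, 41.9, 42.9, 40.0 and 42.8 CPM in untreated replicates 1 to 5, and 34.2, 39.0, 39.2, 39.6 and 35.7 CPM in RG2833 replicates 1 to 5. Every RG2833 animal lay below every untreated animal, although the nearest values, 39.6 and 40.0 CPM, were almost level. The log2 fold change was -0.18 ± 0.07 (SE, edgeR adjusted p = 0.132), from 42.6 ± 1.99 to 37.5 ± 2.42 CPM (SD, n = 5 each).

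Qars, the glutamine enzyme, was the other synthetase gene whose groups did not overlap. It was at 79.2, 83.1, 77.8, 74.2 and 73.4 CPM in untreated replicates 1 to 5 and at 70.9, 73.0, 70.3, 72.7 and 70.5 CPM in RG2833 replicates 1 to 5. The RG2833 animals lay close together just below the lowest untreated animal. The log2 fold change was -0.12 ± 0.06 (SE, edgeR adjusted p = 0.235), and -0.012 in a fit with the ribosomal RNA share as a further term (edgeR adjusted p = 1.00). Because that share does not overlap between the groups, such a fit cannot tell it apart from treatment. It called 2 of all tested genes. In all, 2 of the 35 genes had groups that did not overlap, both lower in RG2833 animals. Among all tested genes 7.27% did so, 3.8% higher and 3.47% lower. The count was 3 with library totals in place of TMM scaling and 4 without untreated replicate 5. It was 3 without untreated replicate 2 or 3 or without RG2833 replicate 1 or 2. Groups with fewer animals separate more easily, and the share of all tested genes at these settings is not given here. These counts are therefore no result about the synthetases.

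Among the other cytosolic genes, Farsa and Farsb encode the alpha and beta subunits of 1 enzyme, the phenylalanine synthetase. Their log2 fold changes were 0.13 ± 0.07 (SE, edgeR adjusted p = 0.284) and 0.00 ± 0.08. Farsa was at 36.9 to 39.3 CPM in untreated animals and at 37.7 to 46.3 CPM in RG2833 animals, where replicates 1, 2 and 5 were the high ones. Kars, the lysine enzyme of both compartments, was at 93.3 to 104 CPM without and 88.7 to 96.9 CPM with RG2833 (log2 fold change -0.11 ± 0.06, SE, edgeR adjusted p = 0.287). Vars, the valine enzyme, was at 54.3 to 63.1 CPM and at 60.3 to 66.1 CPM (0.11 ± 0.06, SE, edgeR adjusted p = 0.327). The ranges of both genes overlapped between groups. In the ribosomal RNA covariate fit, Kars was at -0.0018 and Farsa at 0.27 on the log2 scale.

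In Aars, Nars, Sars and Gars the groups also overlapped. Aars, the alanine enzyme, was at 231 ± 36.6 CPM without and 238 ± 6.38 CPM with RG2833 (SD, n = 5 each), a log2 fold change of 0.04 ± 0.10 (SE). Its values ran from 184 to 276 CPM among untreated animals and from 229 to 246 CPM among RG2833 animals, which lay inside the untreated range. Nars, for asparagine, was at 199 ± 16.7 and 209 ± 7.69 CPM, and Sars, for serine, at 171 ± 16.1 and 186 ± 10.1 CPM. Gars, the glycine enzyme of both compartments, was at 129 ± 14.5 and 132 ± 8.54 CPM. The smallest edgeR adjusted p of these 4 genes was 0.372, that of Sars.

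The 7 genes with TTGCATCA in their windows had log2 fold changes of 0.14 (Iars), 0.09 (Yars), 0.07 (Nars), 0.04 (Aars), -0.01 (Cars), -0.02 (Mars) and -0.06 (Tars). Of these, 0 were called and 0 had an unadjusted p under 0.05 (edgeR; smallest adjusted p = 0.366). Their median log2 fold change was 0.04, against 0.05 for the 10 cytosolic genes whose window held no match.

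Untreated replicate 2 had the lowest level of the 10 animals for 13 of the 20 cytosolic genes, against 16% of all tested genes, and for 1 of the 15 mitochondrial genes. Its Iars level was 52.6 CPM where the other untreated animals were at 67.0 to 74.8 CPM, and its Aars level was 184 CPM against 207 to 276 CPM. Tars, the threonine enzyme, was at 42.5 CPM against 54.4 to 60.1 CPM. Qars went the other way, with 83.1 CPM in that animal, its highest value. Over the 20 cytosolic genes, the mean of log2 CPM centred per gene was -0.15 in untreated replicate 2, between -0.07 and 0.06 in the other untreated animals and between -0.05 and 0.04 in the RG2833 animals.

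This library also had the highest ribosomal RNA share (5.36%) and the lowest summed level of the 5 excitatory neuron markers (2248 CPM). Of those markers, Slc17a7, Neurod6 and Neurod2 were lowest of the 10 animals there, whereas Camk2a (771 CPM) and Prox1 (42.7 CPM) were lower in untreated replicate 1 (543 and 12.4 CPM). Its summed markers of astrocytes (4220 CPM), microglia (324 CPM) and blood (26.5 CPM) were the highest of the 10 animals. The part of these in its low synthetase values was not tested. Without untreated replicate 2 the median log2 fold change of the cytosolic genes was -0.02 in place of 0.02, and 0 synthetase genes were called.

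**Figure D2:**
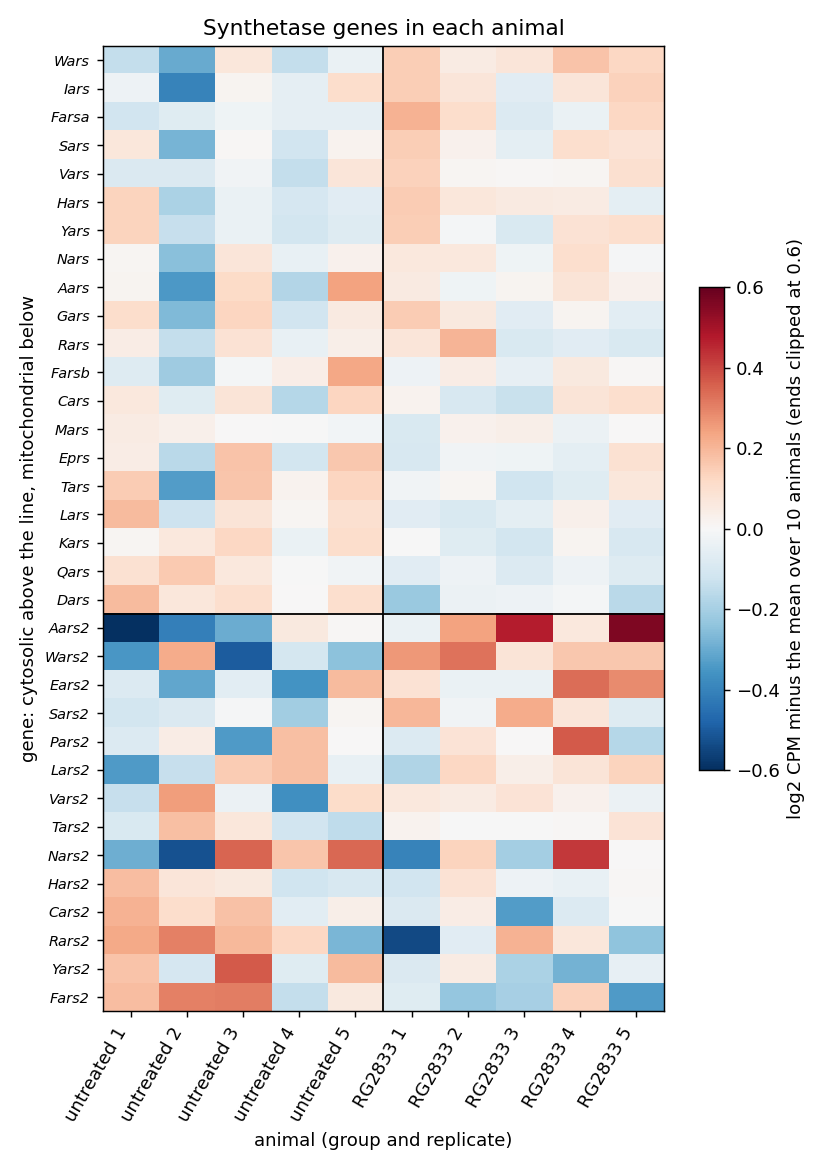
Colour shows log2 CPM minus the gene's mean over 10 animals, with genes in rows (cytosolic above the line, mitochondrial below, each ordered by fold change) and animals in columns. Untreated replicate 2 is the lowest animal in 13 of the 20 cytosolic rows, whereas the mitochondrial rows show no animal lowest in more than 4 of the 14 genes drawn.

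Aars2, the mitochondrial alanine enzyme, had the largest difference of all 35 genes. It was at 11.4, 13.6, 14.7, 18.9 and 18.2 CPM in untreated replicates 1 to 5 and at 17.6, 21.5, 25.2, 18.9 and 26.8 CPM in RG2833 replicates 1 to 5. Untreated replicates 4 and 5 lay above RG2833 replicate 1 and below the other RG2833 animals, so the groups overlapped. The log2 fold change was 0.51 ± 0.16 (SE, edgeR adjusted p = 0.0747), from 15.4 ± 3.14 to 22.0 ± 3.93 CPM (SD, n = 5 each).

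Aars2 was the only synthetase gene that any other fit called at an adjusted p under 0.05. Leaving out untreated replicate 4 made it a call (0.60 on the log2 scale, edgeR adjusted p = 0.0288), as did DESeq2's Wald test (0.51, DESeq2 adjusted p = 0.0297). These 2 fits called 13.1% and 10.9% of all tested genes, against 5.08% in the main fit. When the log2 share of ribosomal RNA entered the fit as a covariate, the Aars2 difference was 0.09 (edgeR adjusted p = 1.00). That share does not overlap between the groups, and 2 of all tested genes were called in this fit.

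Wars2, the mitochondrial tryptophan enzyme, had a higher mean in RG2833 animals, as did its cytosolic counterpart Wars. It was at 6.18, 9.29, 5.56, 7.35 and 6.66 CPM in untreated replicates 1 to 5 and at 9.54, 9.99, 8.37, 8.90 and 8.89 CPM in RG2833 replicates 1 to 5. Only untreated replicate 2 reached the RG2833 range. The log2 fold change was 0.38 ± 0.14 (SE, edgeR adjusted p = 0.128), and without untreated replicate 2 it was 0.51 (edgeR adjusted p = 0.0624). In the fit with the ribosomal RNA covariate it was 0.64 (edgeR adjusted p = 1.00). At 54 to 112 counts per library, this gene is among the thinly covered ones.

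Fars2, the mitochondrial phenylalanine enzyme, had the most negative difference of the 35. It was at 23.5, 25.5, 25.5, 18.6 and 21.5 CPM in untreated replicates 1 to 5 and at 19.6, 17.5, 17.9, 22.7 and 16.2 CPM in RG2833 replicates 1 to 5. Untreated replicates 4 and 5 and RG2833 replicates 1 and 4 lay where the groups overlapped. The log2 fold change was -0.29 ± 0.12 (SE, edgeR adjusted p = 0.154), and 0.014 with ribosomal RNA share as covariate (edgeR adjusted p = 1.00).

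**Figure D3:**
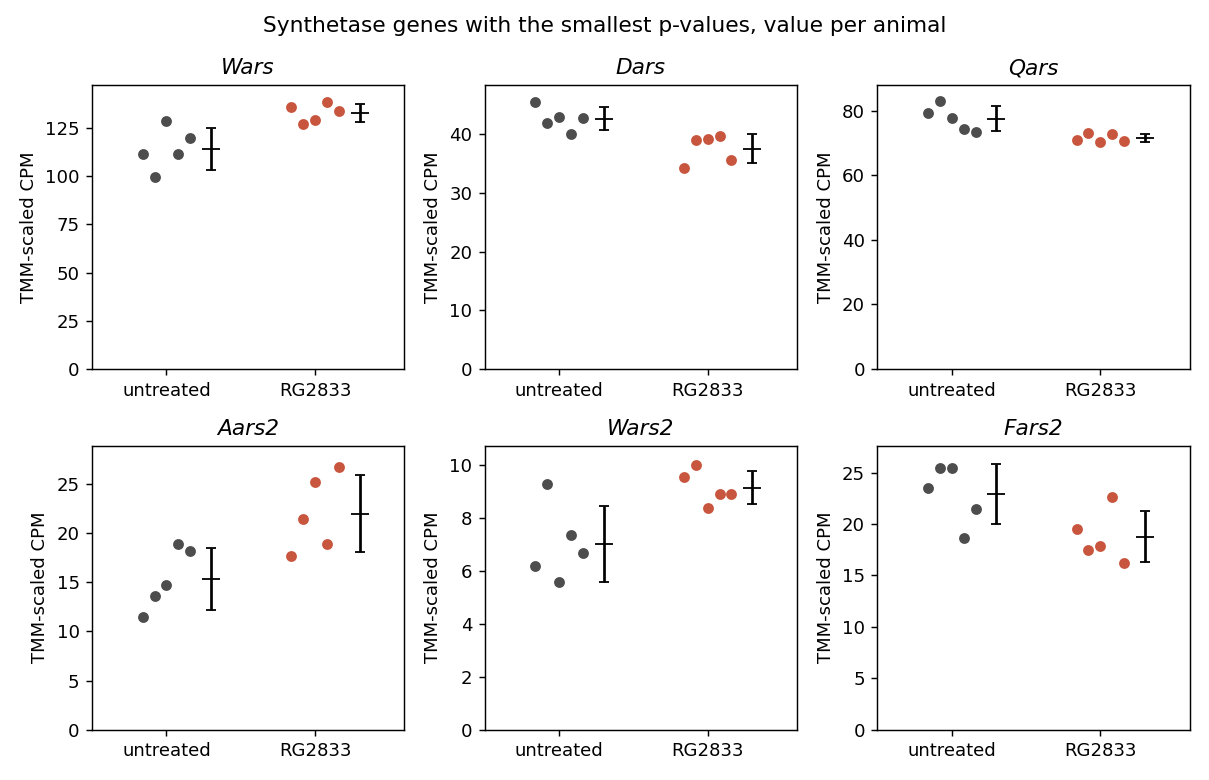
Each panel shows TMM-scaled CPM (y axis, from 0) per animal for 1 gene, with untreated animals in grey, RG2833 animals in red, and the mean and SD in black (n = 5 each). The groups of Dars and Qars are apart by less than 1 CPM, and those of Wars, Aars2, Wars2 and Fars2 overlap.

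The next 3 mitochondrial genes by p-value were Yars2, Cars2 and Sars2, for tyrosine, cysteine and serine. Yars2 was at 12.4 ± 1.72 CPM without and 10.5 ± 0.953 CPM with RG2833 (SD, n = 5 each, edgeR adjusted p = 0.255). Cars2 was at 17.3 ± 1.31 and 15.3 ± 1.51 CPM (edgeR adjusted p = 0.273), and Sars2 at 15.1 ± 0.922 and 16.9 ± 1.56 CPM (edgeR adjusted p = 0.305). Each difference in means exceeded 1 SD of either group, but none passed the test. With the ribosomal RNA covariate the log2 fold changes of Yars2 and Cars2 were -0.07 and 0.027.

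The white matter disease gene Ears2, for glutamate, had a log2 fold change of 0.26 ± 0.17 (SE). At 27 to 42 counts per library, it was one of the most thinly covered synthetase genes, and its 95% interval ran from -0.12 to 0.64. Nars2, at 27 to 55 counts, had the widest interval of the 35, -0.52 to 0.45 around -0.04. Rars2, for arginine, was at 8.31 ± 1.22 and 7.10 ± 1.41 CPM (SD, n = 5 each, log2 fold change -0.23 ± 0.16, SE). Differences of Hars2, Tars2, Vars2, Lars2 and Pars2 lay between -0.04 and 0.08.

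Cytosolic and mitochondrial enzymes for the same amino acid gave 14 pairs, with Fars2 set beside both Farsa and Farsb. Eprs (-0.05), which serves glutamate and proline, was left out of the pairs. Its sign was opposite to those of Ears2 (0.26) and Pars2 (0.08). The 2 differences of a pair had the same sign in 6 of the 14 pairs. Wars and Wars2 (0.22 and 0.38) and Sars and Sars2 (0.12 and 0.16) both had higher means in RG2833 animals, whereas Farsa and Fars2 (0.13 and -0.29) and Yars and Yars2 (0.09 and -0.23) went opposite ways on the log2 scale. Aars and Aars2 had the same sign but differences of 0.04 and 0.51. Hars and Hars2, which start from the 143 bases printed above, had log2 fold changes of 0.10 ± 0.07 and -0.04 ± 0.08 (SE). Hars was at 99.4 to 124 CPM in untreated and 109 to 126 CPM in RG2833 animals, and Hars2 at 31.6 to 39.1 and 31.7 to 36.5 CPM, so the groups of both overlapped. The difference within a pair was not tested.

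The enzymes of the multi-synthetase complex are Dars, Eprs, Iars, Kars, Lars, Mars, Qars and Rars. None was called, and 6 of the 8 had a lower mean in RG2833 animals, the others being Iars (0.14) and Rars (0.01). The 3 scaffold genes also had lower means. Aimp1 was at 48.5 ± 4.74 and 43.4 ± 4.99 CPM, Aimp2 at 37.2 ± 3.79 and 33.8 ± 2.64 CPM, and Eef1e1 at 41.1 ± 5.05 and 36.0 ± 3.43 CPM in untreated and RG2833 animals (SD, n = 5 each). Their log2 fold changes were -0.16 ± 0.10, -0.14 ± 0.09 and -0.19 ± 0.10 (SE), with edgeR adjusted p-values of 0.320, 0.356 and 0.251. Under the ribosomal RNA covariate, Aimp1 was at 0.010, Aimp2 at -0.16 and Eef1e1 at -0.06.

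Together, 9 of these 11 genes lay below 0, with a median log2 fold change of -0.11, while 10 of the 12 cytosolic synthetase genes outside the complex lay above 0, with a median of 0.08. Among all tested genes 50.6% lay below 0. With DESeq2 size factors the counts were the same, with library totals they were 10 and 9, and with the ribosomal RNA covariate 8 and 9, where the medians were -0.05 and 0.06. Without untreated replicate 2, 10 of the 11 lay below 0 and 7 of the 12 genes outside the complex lay above 0, with a median of 0.04. Per animal, the mean of centred log2 CPM over the 11 genes ran from -0.06 to 0.12 in untreated and from -0.08 to 0.003 in RG2833 animals. Over the 12 genes outside the complex it ran from -0.21 to 0.06 in untreated and from -0.04 to 0.10 in RG2833 animals. Both sets of values overlapped between treatments. The genes were measured in the same animals, and the difference between the 2 groups of genes was not tested. By enzyme class, the median was 0.01 for the 9 cytosolic class I genes and 0.04 for the 10 of class II, Eprs holding a domain of each.

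Of 23 listed partners of aminoacylation, the 3 scaffolds included, 20 were in the table and tested, and 0 were called (edgeR; 3 at an unadjusted p under 0.05, and 0 with DESeq2, limma-voom or limma trend). Over all tested genes these shares were 5.08% called and 24.5% at an unadjusted p under 0.05. Their differences were negative in 15 of the 20, against 50.6% of all tested genes. The count was 11 with the ribosomal RNA covariate and 18 without untreated replicate 2. Prorsd1, a relative of the domain that edits mischarged proline tRNA, was at 3.3, 3.6, 3.2, 3.0 and 2.3 CPM in untreated replicates 1 to 5 and at 2.2, 2.3, 1.7, 2.2 and 1.2 CPM in RG2833 replicates 1 to 5. The groups did not overlap but nearly touched (2.33 and 2.32 CPM), at 11 to 36 counts per library (log2 fold change -0.69 ± 0.22, SE, edgeR adjusted p = 0.0809). Fitted with the ribosomal RNA covariate, Prorsd1 was at -0.20 (edgeR adjusted p = 1.00). Ptrh2, a peptidyl-tRNA hydrolase, was at 18.6 ± 2.64 and 14.7 ± 1.38 CPM (SD, n = 5 each, edgeR adjusted p = 0.0978). Gatc and Qrsl1, subunits of the amidotransferase that makes mitochondrial glutaminyl-tRNA, had log2 fold changes of -0.13 and 0.03.

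Among genes of tRNA processing, export and modification, 79 of the 96 listed were in the table and tested. Of the 79, 1 was called, a smaller share than the 5.08% of all tested genes. Alkbh1, a dioxygenase that acts on modified bases of tRNA, fell from 16.4 ± 1.16 to 12.2 ± 1.5 CPM (SD, n = 5 each; log2 fold change -0.42 ± 0.11, SE, edgeR adjusted p = 0.0420). It was at 16.5, 16.6, 14.5, 17.8 and 16.6 CPM in untreated replicates 1 to 5 and at 13.0, 12.1, 11.2, 10.6 and 14.3 CPM in RG2833 replicates 1 to 5, and the groups did not overlap. The call was lost (edgeR adjusted p from 0.0606 to 0.105) when any animal other than untreated replicate 4 or 5 was left out, and with ribosomal RNA share as covariate (-0.49, edgeR adjusted p = 1.00). It was also lost with a choroid plexus score as covariate (-0.43, edgeR adjusted p = 0.0717) and with no filter on low counts (-0.42, edgeR adjusted p = 0.0511), where the log2 fold change was as large as before. A term for replicate number (the replicate block) lost it too (-0.43, edgeR adjusted p = 0.0890). Differences were negative in 49 of the 79 genes, against 50.6% of all tested genes, with a median of -0.06. Xpot, which exports tRNA from the nucleus and is itself an ATF4 target, was at 52.7 ± 8.73 and 57.0 ± 4.35 CPM (SD, n = 5 each), a log2 fold change of 0.11 ± 0.11 (SE).

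The amino acid response genes were read beside the synthetases because both are driven by ATF4 when amino acids run short. Of 55 listed genes, 54 were in the table and 50 were tested. Of the 50, 2 were called, 1 higher and 1 lower, a share near the 5.08% of all tested genes, so the count is no result about the list. Asns, asparagine synthetase, rose from 80.0 ± 10.4 to 104 ± 4.29 CPM (SD, n = 5 each; log2 fold change 0.38 ± 0.09, SE, edgeR adjusted p = 0.0328). It was at 85.2, 67.5, 70.8, 92.2 and 84.2 CPM in untreated replicates 1 to 5 and at 111, 99.2, 102, 106 and 104 CPM in RG2833 replicates 1 to 5. Each RG2833 animal lay above each untreated animal.

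Impact, which encodes an inhibitor of the amino acid sensor kinase GCN2, fell from 366 ± 54.0 to 286 ± 8.33 CPM (SD, n = 5 each; log2 fold change -0.36 ± 0.09, SE, edgeR adjusted p = 0.0484). Untreated animals were at 334, 372, 371, 306 and 449 CPM (replicates 1 to 5), and RG2833 animals at 289, 287, 294, 287 and 272 CPM (replicates 1 to 5), without overlap. The calls of Asns and Impact held without untreated replicate 4 or 5. Each was lost without any of the other 8 animals, with edgeR adjusted p from 0.0529 to 0.0876 for Asns and from 0.0622 to 0.123 for Impact. With ribosomal RNA share as covariate their log2 fold changes were 0.08 and -0.28 (edgeR adjusted p = 1.00 for each). The call of Impact was also lost with the choroid plexus score as covariate (-0.37, edgeR adjusted p = 0.0748), with library totals (-0.37, edgeR adjusted p = 0.0502), with no filter (-0.36, edgeR adjusted p = 0.0546) and in limma-voom (-0.35, limma adjusted p = 0.0521). In these 4 fits its log2 fold change stayed close to -0.36. The replicate block lost the call of Impact too, whereas that of Asns held.

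Atf4 itself was at 256, 223, 232, 198 and 215 CPM in untreated replicates 1 to 5 and at 245, 224, 214, 232 and 222 CPM in RG2833 replicates 1 to 5. The RG2833 animals lay inside the untreated range, at a log2 fold change near 0 (0.02 ± 0.08, SE, edgeR adjusted p = 0.917, 95% interval -0.15 to 0.18). These libraries measure RNA and not the level or activity of ATF4 protein. The stress response gene Ddit3 was at 32.7 ± 6.27 and 31.6 ± 1.41 CPM (SD, n = 5 each, log2 fold change -0.05 ± 0.12, SE), and Trib3 did not pass the filter on low counts. Sesn2, a leucine-sensing inhibitor of mTORC1, was at 14.8 ± 2.94 and 21.1 ± 2.76 CPM (0.51 ± 0.14, SE, edgeR adjusted p = 0.0556) with overlapping groups. Slc3a2 and Slc7a5, the subunits of a transporter of large neutral amino acids, had log2 fold changes of 0.01 and 0.03. Over the 50 tested genes the median was 0.05, and 32 lay above 0.

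**Figure D4:**
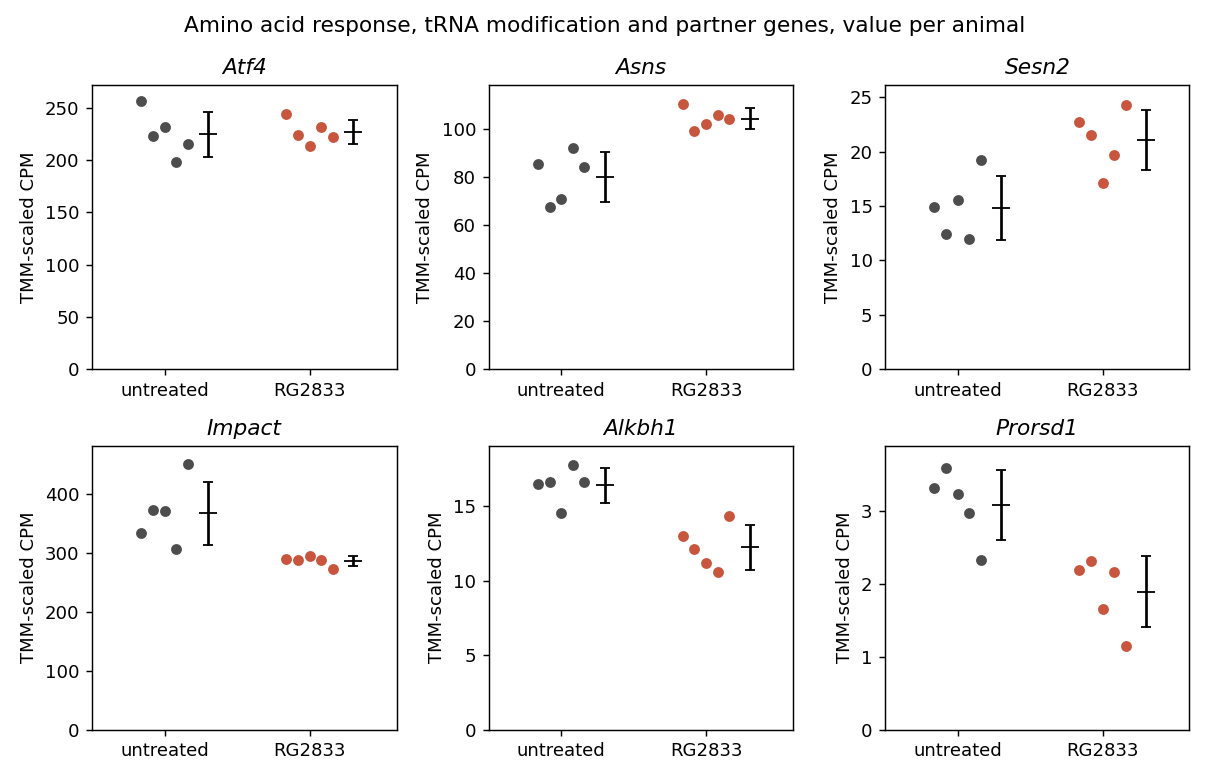
Each panel shows TMM-scaled CPM (y axis, from 0) per animal for 1 gene, with untreated animals in grey, RG2833 animals in red, and the mean and SD in black (n = 5 each). The groups of Asns, Impact, Alkbh1 and Prorsd1 do not overlap, whereas the 5 RG2833 values of Atf4 lie inside the untreated range.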

How the data were processed

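Per the submitters' processing notes, the tools were bcl2fastq 2.17, Bowtie2 2.1.0, RSEM 1.2.15 and edgeR, with build rn6; the annotation is not given in the sources used here. The authors deposited RSEM expected counts, used here after rounding, and a TMM-scaled CPM signal that the authors made from counts, used for 2 alternatives. The main test was edgeR 4.0.16 (R 4.3.3): filterByExpr by group, TMM scaling and quasi-likelihood F test on all 10 samples, with p-values adjusted over all tested genes. The SE was taken as |log2 fold change| over the root of F. Intervals are at 95%. CPM values are TMM-scaled over tested genes, and log2 CPM used a prior count of 2. DESeq2 1.42.0 and limma 3.58.1 served as alternatives.

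Members, lists and motifs were chosen with earlier results of these data known. Given in full were, per compartment, the 6 genes with the smallest p-values and the 2 with the largest differences at a mean log2 CPM of at least 0. From other lists, called genes (or the 2 with the smallest p-values) and 7 genes set in the rule were given; other genes named (Sesn2, Xpot, Gatc, Qrsl1, Slc3a2, Slc7a5, Aif1 and the excitatory neuron markers) were chosen after their values were seen.

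The 20 pairs of libraries within groups differed by more than sampling noise (chi-square per degree of freedom 4.60 to 36.3). Each library is 1 animal. A count of 3, the floor, is 0.265 to 0.342 CPM, which covers counting error only. The scripts were checked on simulated data. RefSeq windows (GRCr8) were matched by symbol or synonym, and 1 sequence and 1 gene's own values are not reported here. No coordinates of the counted features are given because the builds differ.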

Additional observations from a re-analysis of the deposited data

Results flagged for a closer look

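An animal far from the rest of its group was looked for in 90 groups of 5 values, the 35 synthetase genes and 10 pathway genes in both treatment groups. In 3 of them 1 animal's gap to its nearest neighbour, as a share of the group's range, exceeded Dixon's 95% critical value (0.71). About 1 group in 20, or 4.5 here, would do so by chance. Lars, the cytosolic leucine enzyme, was at 74.0 CPM in RG2833 replicate 4 and at 68.1 to 69.6 CPM in the other RG2833 animals. Tars2, the mitochondrial threonine enzyme, was at 51.9 CPM in RG2833 replicate 5 and at 48.9 to 49.7 CPM in the others. Ptrh2 was at 12.3 CPM in RG2833 replicate 4 and at 14.96 to 15.61 CPM in the others. None of the untreated groups, including those in which replicate 2 was lowest, passed the limit.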

How the results depend on the processing

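The count of called synthetase genes was 0 with DESeq2 size factors, library totals, limma-voom, limma trend, other filters (33 of the genes had a mean count of 50 or more), the replicate block and both covariates, 1 with DESeq2's Wald test and 2 at an adjusted p under 0.1 (Aars2 and Wars). The share of all tested genes at that looser threshold is not given here, so the 2 cannot be set against it. Leaving out 1 of the 10 animals at a time gave 0 to 1 (Aars2, without untreated replicate 4). Called tRNA genes (1) were 2 with DESeq2's Wald test and 0 without a filter, with the replicate block and with either covariate (range without one animal 0 to 3). Called response genes (2) were 4 with DESeq2's Wald test and 0 with the ribosomal RNA covariate. They were 1 with library totals, no filter, limma-voom, the replicate block and the choroid plexus covariate (range without one animal 0 to 6). Called partner genes were 0 throughout. Non-overlapping synthetase genes ran from 2 to 4 without one animal, with no matching share of all tested genes given here. Median log2 fold changes without one animal ran from -0.02 to 0.06 (cytosolic) and from -0.02 to 0.05 (mitochondrial). Over all genes, calls ran from 98 (without RG2833 replicate 5) to 1556 (without untreated replicate 4), against 599; DESeq2's Wald test gave 1286, the choroid plexus covariate 241 and the ribosomal RNA covariate 2. With the ribosomal RNA covariate, log2 fold changes changed sign for Fars2 (0.014), Cars2 (0.027), Aimp1 (0.010) and Ddit3 (0.24), and the cause was not tested. Without one animal, Atf4 ran from -0.026 to 0.068 and Ddit3 from -0.15 to 0.023. Same-numbered animals are different rats whose deviations did not correlate (mean -0.0662), so the block stands for no pairing; with it 180 genes were called in all. Counts were lower for the mitochondrial genes (27 to 555 per library) than for most cytosolic ones (323 to 2729), and the part of depth in their wider intervals was not tested.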
